A study of Spinacia oleracea with 12 samples.

Results

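RADIALIS (Spo28204) and RADIALIS-like 6 (Spo18481) are 2 of the 25495 genes in the expression table of a spinach (Spinacia oleracea) study of N supply. They were selected on their leaf values: the study listed them among the transcription factors whose leaf expression differed between N supplies in these same libraries. Their leaf values are therefore given below as a description without a test. The plants were of the variety 'Banjo', were 6 weeks old, and grew on a Turface-based medium with an N-free Hoagland's nutrient solution to which N was added as Ca(NO3)2. Low N plants received 50 ppm N and high N plants 200 ppm N, and CaCl2 was added so that the supply of calcium did not differ. RNA of leaf and of root was sequenced from 3 independent plants in each of 4 groups: low N leaf, high N leaf, low N root and high N root. The records do not say whether a leaf and a root library of the same number came from the same plant. Some tissue and treatment entries of the sample records disagree with the sample titles. Groups were taken from the titles, which the series description explains.

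RADIALIS is best known from snapdragon (Antirrhinum majus), where it gives the upper petals of the flower their identity. It encodes a very small protein of the MYB-related family with a single MYB domain and little else. In snapdragon it is switched on by CYCLOIDEA, a TCP transcription factor, and it opposes DIVARICATA, a larger MYB protein, by competing for the partner proteins that DIVARICATA needs. Arabidopsis has a small family of RADIALIS-like genes, and RADIALIS-like 6 takes its name from 1 of them. The names of both spinach genes are those that the study gives with the Spo identifiers.

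The 12 libraries held 15627994 to 18608172 fragments (read pairs) on genes, and FPKM values could be worked back to whole fragments. Both genes are short. The gene length behind the FPKM values was 234 bases for RADIALIS and 216 bases for RADIALIS-like 6, against a median of 1392 bases over all genes, and only 2.52% of genes were 234 bases or less. One fragment was therefore worth 0.230 to 0.273 FPKM for RADIALIS, and 3 fragments, the smallest number taken as detected, were worth 0.746 to 0.889 FPKM for RADIALIS-like 6. These floors, and the intervals given below, cover counting error only. All 6 photosystem and light-harvesting genes used as leaf markers were higher in every leaf library than in any root library, where none passed 10.4 FPKM. Of 5 root markers, 4 were higher in every root library than in any leaf library, and the exception was peroxidase PER27 (Spo09292), which reached 86.9 FPKM in leaf.

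RADIALIS was detected in all 12 libraries. It had 14.8, 23.7 and 36.1 FPKM in low N leaf, against 2.11, 3.51 and 3.51 FPKM in high N leaf. Every low N leaf library was above every high N leaf library. In root it had 3.82, 15.8 and 18.9 FPKM under low N, against 4.16, 3.45 and 6.02 FPKM under high N. Low N root replicates 2 and 3 were above all high N root libraries, whereas replicate 1 lay among them, so the root groups overlapped. The fragments behind these values were few: 57 to 152 per library in low N leaf, 8 to 15 in high N leaf, 16 to 72 in low N root and 13 to 22 in high N root.

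RADIALIS-like 6 had 7.05, 58.6 and 16.0 FPKM in low N leaf, from 25, 210 and 62 fragments. In high N leaf it had 3.30 FPKM from 13 fragments in replicate 3 and no fragment in replicates 1 and 2, where 3 fragments would have been worth 0.855 and 0.760 FPKM. The leaf groups did not overlap, but low N leaf replicate 2 alone held most of the low N signal. In low N root RADIALIS-like 6 had 0.259, 0 and 1.71 FPKM, from 1, 0 and 6 fragments. In high N root it had 1.13, 1.15 and 0 FPKM, from 4, 4 and 0 fragments. Root was thus at or near the limit of detection under both N supplies, with 3 or more fragments in 1 of 3 low N root libraries and in 2 of 3 high N root libraries.

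**Figure D1:**
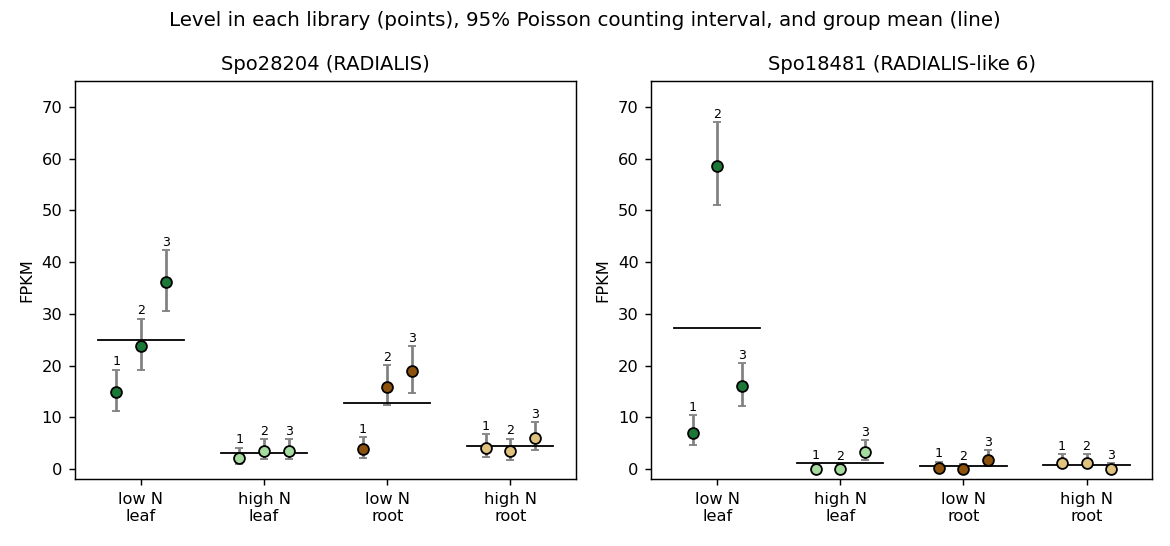
FPKM of RADIALIS (left) and RADIALIS-like 6 (right) in each of the 12 libraries, by group. Points are libraries with their replicate number, grey bars are 95% exact Poisson intervals for the counting error of each library, and black lines are group means. RADIALIS is at 14.8 FPKM or more in low N leaf and in 2 of 3 low N root libraries, and RADIALIS-like 6 is above 3.30 FPKM in low N leaf alone.

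The counting error of single libraries was set beside the spread among plants, for the lowest and highest of the 3 low N libraries. For RADIALIS in low N leaf, the 95% exact Poisson interval was 11.2 to 19.2 FPKM in replicate 1 and 30.6 to 42.4 FPKM in replicate 3. In low N root it was 2.18 to 6.21 FPKM in replicate 1 and 14.8 to 23.8 FPKM in replicate 3. For RADIALIS-like 6 in low N leaf, it was 4.56 to 10.4 FPKM in replicate 1 and 51.0 to 67.1 FPKM in replicate 2. None of these pairs of intervals overlapped. The high N libraries held fewer fragments, which widens their intervals relative to the value, and the intervals of RADIALIS overlapped among all 3 replicates of high N leaf and of high N root. For RADIALIS-like 6 in high N leaf the interval was 1.75 to 5.64 FPKM in replicate 3, above those of replicates 1 and 2 (0 to 1.05 and 0 to 0.934 FPKM).

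Ordered by mean level, RADIALIS was highest in low N leaf at 24.9 ± 10.7 FPKM (SD, n = 3). It averaged 12.9 ± 7.97 FPKM in low N root, 4.54 ± 1.33 FPKM in high N root and 3.04 ± 0.810 FPKM in high N leaf. Each neighbouring pair in this order overlapped in range, so no step of the order exceeded the spread of its groups. RADIALIS-like 6 averaged 27.2 ± 27.6 FPKM in low N leaf, 1.10 ± 1.90 FPKM in high N leaf, 0.759 ± 0.657 FPKM in high N root and 0.655 ± 0.920 FPKM in low N root. The ranges of the 3 lower groups overlapped, and low N leaf stood above them all. Against the other genes of the same library, RADIALIS was above 74.7% to 88.9% of all genes in low N leaf, and above 43.3% to 51.9% in high N leaf.

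RADIALIS passed the filter of a mean of 1 FPKM in both tissues and RADIALIS-like 6 in leaf alone, through its low N libraries. The root libraries were not used to choose either gene, and they allow a test of low N against high N. The means of RADIALIS in root were 12.9 FPKM under low N and 4.54 FPKM under high N, a ratio of 2.83. On the log2(FPKM + 1) scale, which understates the change of low genes, the difference was 1.11 (SE 0.53), low N minus high N, and the limma adjusted p was 0.487 (unadjusted p = 0.0756). RADIALIS therefore did not pass the test in root, although the difference was the 307th highest of 17881 genes tested. In the same fit 11.1% of genes had an unadjusted p below 0.05 and 0.028% an adjusted p below 0.05, and 9.5% had every low N library above every high N library. RADIALIS was in none of these sets. Among the 1993 genes with an unadjusted p below 0.05, 58.5% were higher under low N, a share that became 47.4% with median-of-ratios scaling and 48.5% with quantile normalization.

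The root difference of RADIALIS depended on which plant was left out. It was 1.75 without low N root replicate 1, with a limma adjusted p of 0.109, and 0.73 without low N root replicate 3, with a limma adjusted p of 0.752. Its adjusted p stayed at or above 0.103 in every fit that was run. RADIALIS-like 6 was under the filter in root. Its mean of log2(FPKM + 1) differed by -0.14, low N minus high N, with p = 1 in a two-sided exact permutation test, in which 3 plants against 3 cannot give a p below 0.1. The test rested on 0 to 6 fragments in each root library.

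In leaf, the comparison that chose the genes, the mean of RADIALIS was 8.19 times as high in low N leaf as in high N leaf. The log2(FPKM + 1) difference was 2.62 (SE 0.40 from the replicates), the 15th highest of 16522 genes. For RADIALIS-like 6 the ratio of means was 24.8 and the log2(FPKM + 1) difference 3.63 (SE 1.10 from the replicates), the 2nd highest. Across all genes, 10.5% had every low N leaf library above every high N leaf library, and both genes were among them, in the comparison that chose them. The ratio for RADIALIS stayed between 6.34 and 9.84 when any 1 leaf library was left out. That of RADIALIS-like 6 was 10.5 without low N leaf replicate 2, and 16.5 without high N leaf replicate 1 or without replicate 2. High N leaf replicate 3 was the only high N leaf library with a RADIALIS-like 6 fragment. Without it, and with high N leaf replicates 1 and 2 set to the floor of 3 fragments, the ratio was 33.7. The counting intervals of those libraries reached 1.05 and 0.934 FPKM, above that floor, so 33.7 is not a strict lower bound. In RNA from whole tissue, fewer cells of a type and less RNA per cell cannot be told apart.

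Leaf and root were also set side by side within each N supply, as a description. For RADIALIS the mean in leaf was 1.94 times that in root under low N, with overlapping ranges, and 0.669 times that in root under high N. The log2(FPKM + 1) differences, leaf minus root, were 1.06 under low N and -0.45 under high N. The median gene had a leaf minus root difference of -0.55 under low N and -0.52 under high N, and relative to that median RADIALIS was at 1.61 and 0.07. The median of all genes moved to -0.05 and -0.04 with median-of-ratios scaling, and the sign of the small high N value of RADIALIS turned under quantile normalization. For RADIALIS-like 6 every low N leaf library was above every low N root library, with a ratio of means of 41.6 and a log2(FPKM + 1) difference of 3.74, leaf minus root. Under high N its leaf and root values overlapped and differed by -0.03, with a sign that turned under other scalings.

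The N difference in leaf minus the N difference in root was 1.51 for RADIALIS and 3.77 for RADIALIS-like 6 on the log2(FPKM + 1) scale. These differences contain the leaf libraries that chose the genes and carry no test. Over the 6 leaf libraries the log2(FPKM + 1) values of the 2 genes had a Pearson r of 0.88, and over the 6 root libraries of 0.01. The leaf value contains the separation of low N from high N libraries, which both genes had in the comparison that chose them. Within low N leaf the highest library was replicate 3 for RADIALIS and replicate 2 for RADIALIS-like 6, and replicate 1 was the lowest for both.

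The genes whose pattern was most like that of RADIALIS were looked for among 18410 genes with a mean of at least 1 FPKM, by Pearson r on log2(FPKM + 1) over the 12 libraries. These r are descriptions, since libraries share N supply and tissue, and leaf and root libraries may share plants. The nearest was Spo22569, which the study's tables do not annotate, with an r of 0.96. It had 7.95, 9.94 and 13.9 FPKM in low N leaf, against 1.82, 2.35 and 2.63 FPKM in high N leaf. In root it had 1.99, 10.7 and 6.20 FPKM under low N, against 3.07, 1.75 and 2.83 FPKM under high N. Low N root replicate 1 was thus low for Spo22569, as it was for RADIALIS, which the choice by likeness over these libraries favours.

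The next were a Senescence/dehydration-associated protein (Spo04802, r 0.95), UDP-glycosyltransferase 76B1 (Spo15163, r 0.91), Peroxidase 51 (Spo13083, r 0.90) and the unannotated Spo19456 (r 0.90). In Arabidopsis UGT76B1 attaches a sugar to isoleucic acid and salicylic acid, and class III peroxidases such as Peroxidase 51 act in the cell wall. Spo04802 had 14.2, 15.3 and 18.2 FPKM in low N leaf, against 7.37, 5.57 and 6.79 FPKM in high N leaf. In root it had 6.81, 14.7 and 15.8 FPKM under low N, against 6.51, 5.45 and 9.40 FPKM under high N. Its root ranges overlapped because of low N root replicate 1, a library used in choosing it.

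Over the 6 leaf libraries alone, the 5 genes most like RADIALIS had r of 0.991 to 0.999 among 16521 genes. They were DETOXIFICATION 49 (Spo18587), a transporter of the MATE family, Spo22569, Glucuronoxylan 4-O-methyltransferase 1 (Spo12159), COBRA-like protein 4 (Spo24967) and the unannotated Spo11084. In Arabidopsis the methyltransferase modifies xylan, and COBRA-like 4 takes part in laying down cellulose in secondary cell walls. Glucuronoxylan 4-O-methyltransferase 1 had 10.2, 12.1 and 14.8 FPKM in low N leaf, against 3.65, 4.67 and 5.26 FPKM in high N leaf. Root values were not used in this choice. All 5 genes passed the root filter. Their root log2(FPKM + 1) differences, low N minus high N, were -0.33 (Spo18587), 0.85 (Spo22569), 0.59 (Spo12159), 0.07 (Spo24967) and 0.01 (Spo11084). The median over all genes tested in root was 0.05. None of the 5 had an unadjusted p below 0.05 in root (background 11.1% of genes, lowest limma adjusted p = 0.482). DETOXIFICATION 49, with the negative difference, had 1.56, 1.05 and 0.505 FPKM in low N root, against 1.81, 1.84 and 0.971 FPKM in high N root.

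The genes most like RADIALIS-like 6 over the 12 libraries were Omega-hydroxypalmitate O-feruloyl transferase (Spo12063, r 0.92), the unannotated Spo07600 (r 0.91), a WAT1-related protein (Spo19039, r 0.90), BURP domain-containing protein 3 (Spo18198, r 0.90) and HEADING DATE 3A (Spo11983, r 0.88). Other than Spo07600, none of them passed 1.16 FPKM in any root library. In Arabidopsis the feruloyl transferase adds ferulate to suberin, the waxy polymer of barrier cell walls. HEADING DATE 3A takes its name from the rice florigen, a mobile signal made in leaves that brings on flowering.

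HEADING DATE 3A had 24.9, 51.7 and 23.3 FPKM in low N leaf, against 4.84, 1.14 and 9.98 FPKM in high N leaf. The BURP gene had 13.3, 19.0 and 14.2 FPKM in low N leaf, against 0.525, 0.513 and 2.85 FPKM in high N leaf. In both, low N leaf replicate 2 was the highest low N library and high N leaf replicate 3 the highest high N library, the same libraries as for RADIALIS-like 6. Both genes were chosen for likeness to RADIALIS-like 6 over these libraries, so the match is built into the choice. Over the leaf libraries alone the 5 nearest genes (Spo07600, Spo11878, Spo21082, Spo08436 and Spo12675, r 0.986 to 0.995) were not annotated in the study's tables. None had an unadjusted p below 0.05 in root (background 11.1% of genes, lowest limma adjusted p = 0.577).

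**Figure D2:**
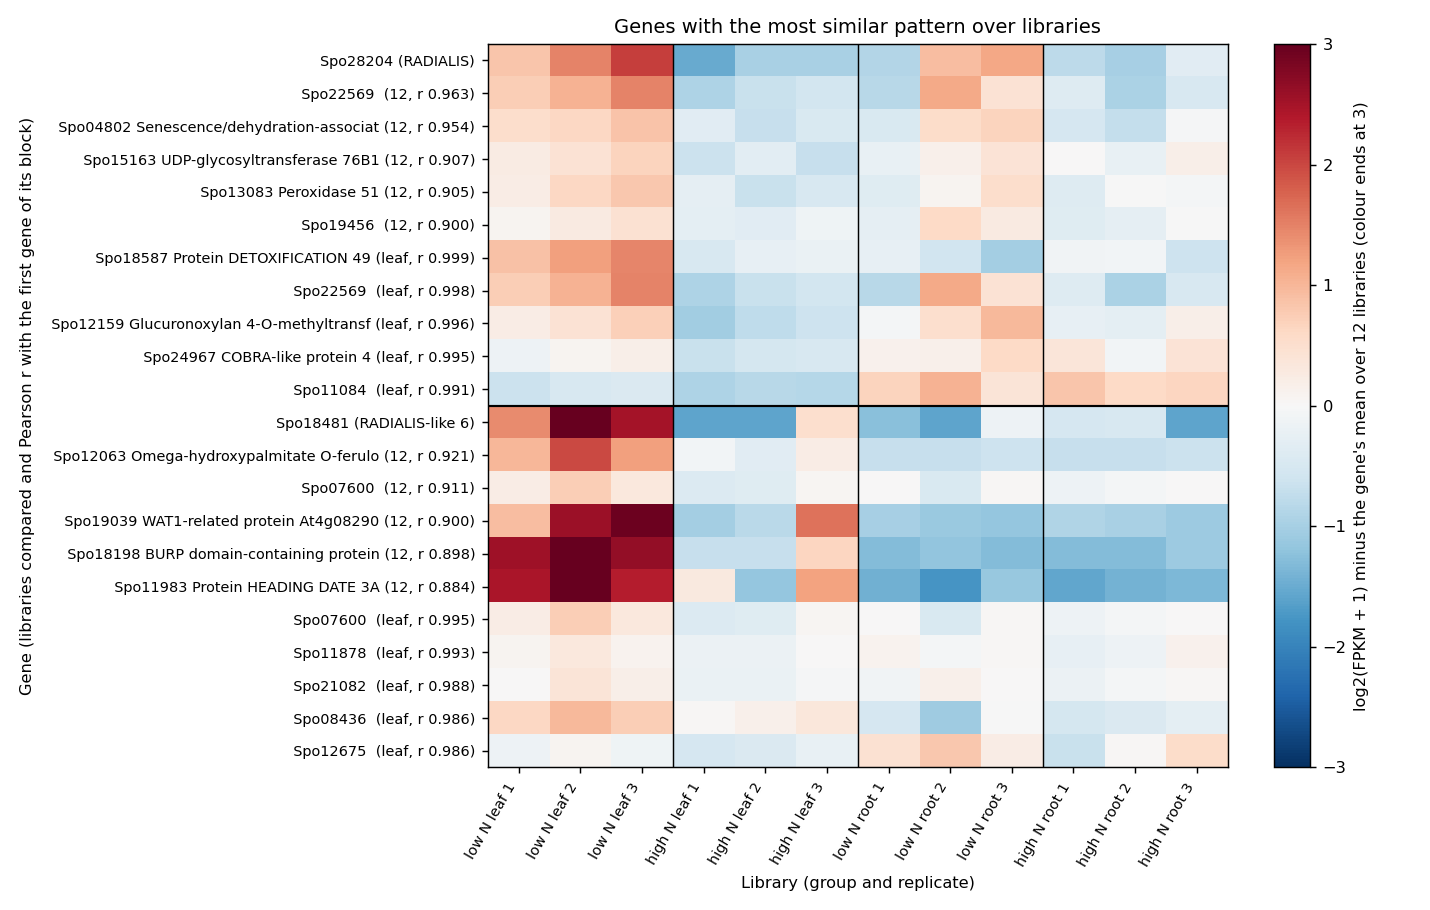
Colour map of log2(FPKM + 1) minus the gene's mean over 12 libraries, for RADIALIS, RADIALIS-like 6 and the genes with the most similar pattern to each. Rows are genes with the libraries compared and the Pearson r, columns are libraries by group, and red is above the gene's mean. Genes were chosen by that r, so likeness in the libraries compared follows from the choice. The genes like RADIALIS include several with raised values in low N root replicates 2 and 3, whereas those like RADIALIS-like 6 over 12 libraries, other than Spo07600, are high in low N leaf and low in root.

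Both genes belong to the MYB-related proteins, and 5 larger MYB genes that the study annotates were set beside them. This list and those below were drawn from the study's own tables of genes that differed in these libraries, so their counts are not independent evidence of a direction. The 5 were MYB61, which in Arabidopsis acts on stomata and resource allocation, MYB72, which in Arabidopsis roots is induced under iron shortage, KUA1, LAF1, known from light signalling in Arabidopsis, and RAX2, known from its axillary meristems. In root all 5 passed the filter. With an unadjusted p below 0.05, 3 were higher and 1 was lower under low N (background 6.52% of genes higher and 4.63% lower), and none passed the adjusted test (lowest limma adjusted p = 0.358). Their median log2(FPKM + 1) difference in root was 0.68, against 0.05 over all genes tested.

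MYB61 (Spo20934) had 9.28, 17.9 and 15.5 FPKM in low N root, against 9.27, 7.23 and 10.0 FPKM in high N root. As for RADIALIS, low N root replicate 1 lay among the high N values. In leaf MYB61 had 3.64, 2.40 and 3.10 FPKM under low N, against 0.850, 1.29 and 1.26 FPKM under high N. KUA1 (Spo10579) had 93.5, 96.3 and 126 FPKM in low N root, against 49.1, 47.8 and 78.6 FPKM in high N root, and these groups did not overlap. RAX2 (Spo16582) ran the other way, with 2.52, 2.14 and 0.870 FPKM in low N root, against 6.27, 6.07 and 3.38 FPKM in high N root. In leaf only MYB61 and KUA1 passed the filter. Both were higher under low N with an unadjusted p below 0.05 (background 6.48% higher, lowest limma adjusted p = 0.263).

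A few regulators known from organ shape were also read, since the TCP and MYB proteins around RADIALIS are known from the shape of flowers. GRF5 (Spo09621), which in Arabidopsis promotes leaf growth, had 1.85, 2.24 and 5.12 FPKM in low N leaf, against 0.603, 0.643 and 1.34 FPKM in high N leaf. Its leaf groups did not overlap, and replicate 3 was the highest low N library, as for RADIALIS. TCP4 (Spo20683) is of the TCP family, as CYCLOIDEA is. It had 34.1, 28.9 and 25.7 FPKM in low N leaf, against 29.0, 45.6 and 51.3 FPKM in high N leaf. In root TCP4 had 4.27, 5.19 and 4.69 FPKM under low N, against 1.82, 1.47 and 1.68 FPKM under high N. The root groups of TCP4 did not overlap, and the difference was 1.10 (SE 0.16, limma adjusted p = 0.123). DROOPING LEAF (Spo00928), a YABBY factor named from rice, had no value above 0 in leaf. It had 3.80, 1.01 and 2.09 FPKM in low N root, against 0.104, 0.316 and 0.435 FPKM in high N root. For this list the median log2(FPKM + 1) difference in root was 1.10 over 3 genes, against 0.05 over all genes tested, and 2 of the 3 were higher with an unadjusted p below 0.05 (background 6.52% higher).

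The other 9 leaf transcription factors of the study's list ran in both directions. In leaf 6 passed the filter. With an unadjusted p below 0.05, 2 were higher and 3 lower under low N (background 6.48% higher and 4.72% lower), with a median log2(FPKM + 1) difference of -0.06 against 0.04 over all genes tested. WRKY50 (Spo19422), of a family known from defence and senescence, had 2.13, 2.52 and 2.38 FPKM in low N leaf, against 0.299, 0.213 and 0.106 FPKM in high N leaf. HHO5 (Spo08219), of a family that represses nitrate and phosphate starvation genes in Arabidopsis, had 0.761, 1.23 and 1.72 FPKM in low N leaf, against 6.35, 5.07 and 8.89 FPKM in high N leaf. WRKY50 was even among the low N plants (2.13 to 2.52 FPKM), unlike RADIALIS and RADIALIS-like 6. In root 5 of the 9 passed the filter. With an unadjusted p below 0.05, 1 was higher and 2 were lower (background 6.52% higher and 4.63% lower, lowest limma adjusted p = 0.414).

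DREB1A (Spo26866) and ERF025 (Spo26923), stress-induced factors of the same list, were spread widely among low N plants. DREB1A had 121, 6.67 and 0 FPKM in low N leaf, and was at 0 in all 3 high N leaf libraries. ERF025 had 39.7, 10.8 and 0.242 FPKM in low N leaf, against 0, 0.713 and 0.397 FPKM in high N leaf. Both were highest in low N leaf replicate 1, the library in which RADIALIS and RADIALIS-like 6 had their lowest low N leaf values. In root DREB1A had 10.4, 0.586 and 0.383 FPKM under low N, against 0.0949, 0.193 and 0 FPKM under high N, again highest in replicate 1.

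Heat shock genes, which serve as a sign of stress in a plant or its handling, varied in the same libraries. The summed FPKM of 13 heat shock genes was 445, 219 and 109 in low N leaf, against 57.2, 73.3 and 57.4 in high N leaf. In root the sum was 428, 262 and 186 under low N, against 210, 219 and 227 under high N. Within low N leaf and within low N root, the heat shock sum was highest in replicate 1 and lowest in replicate 3, and RADIALIS was lowest in replicate 1 and highest in replicate 3. RADIALIS-like 6 did not keep that order in leaf, since its highest library was replicate 2. The sum is carried by a few abundant genes, such as the heat shock cognate gene Spo17157, with 160, 60.1 and 4.60 FPKM in low N leaf. Others were highest in replicate 3, as RADIALIS was: the chloroplastic small heat shock gene Spo01941 had 9.02, 13.0 and 19.7 FPKM in low N leaf and 15.8, 28.4 and 37.7 FPKM in low N root. Spo04994 and Spo25063 were also lowest in replicate 1 and highest in replicate 3 of both low N groups. The part of heat shock in the N differences of the 2 genes was not tested.

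**Figure D3:**
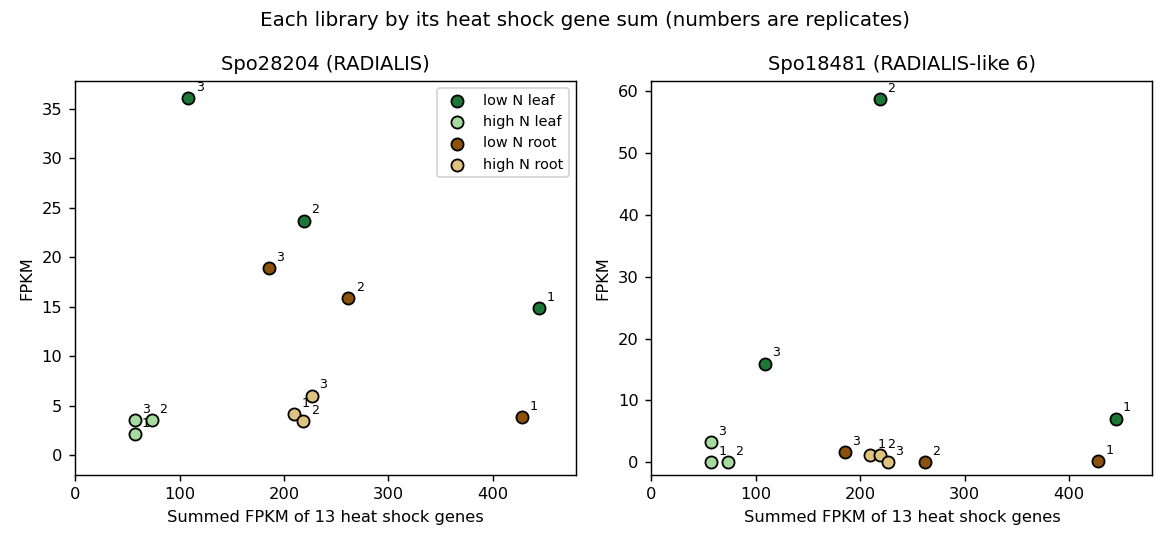
Level of RADIALIS (left) and RADIALIS-like 6 (right) in FPKM against the summed FPKM of 13 heat shock genes, with 1 point per library, coloured by group and marked with the replicate number. In low N leaf and in low N root the library with the highest heat shock sum (445 and 428) has the lowest RADIALIS value (14.8 and 3.82 FPKM). Between the leaf groups, every low N library is above every high N library in both the heat shock sum and RADIALIS. Between the root groups both overlap.

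Of the 13 heat shock genes, 10 passed the filter in leaf, and 9 of them were higher under low N with an unadjusted p below 0.05 (background 6.48% higher), with a median log2(FPKM + 1) difference of 1.37 against 0.04 over all genes tested. HSP90-1 (Spo04382), a chaperone, had 86.9, 18.7 and 1.46 FPKM in low N leaf, against 0.822, 0.0209 and 0.250 FPKM in high N leaf. In root 12 passed, 5 were higher with an unadjusted p below 0.05 (background 6.52% higher) and none was lower, with a median of 0.71 against 0.05 over all genes tested. The lowest limma adjusted p of these genes in root was 0.0949. HSP90-1 had 48.0, 20.8 and 9.42 FPKM in low N root, against 15.8, 10.6 and 9.71 FPKM in high N root, and its root groups overlapped.

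Genes of dividing cells were read as a sign of how much young tissue a sample held. The summed FPKM of DNA replication factor MCM3 (Spo02138), a G2/mitotic-specific cyclin (Spo03116) and Histone H1 (Spo18046) was 154, 189 and 219 in low N leaf, against 388, 258 and 290 in high N leaf. In root it was 662, 300.0 and 635 under low N, against 953, 864 and 659 under high N. Histone H1 makes up most of these sums, and in leaf MCM3 and the cyclin did not follow them. MCM3 had 4.69, 0.516 and 1.43 FPKM in low N leaf, against 0.790, 4.21 and 1.64 FPKM in high N leaf. The cyclin had 4.88, 3.20 and 6.01 FPKM in low N leaf, against 2.38, 3.64 and 6.55 FPKM in high N leaf. Both overlapped between the leaf groups. These 3 genes do not stand for DNA replication as a whole. In the study, DNA replication genes, among them genes of the MCM complex, were reported as up-regulated in leaf under high N. MCM3 had 0.716, 0.919 and 2.1 FPKM in low N root, against 2.86, 3.71 and 5.47 FPKM in high N root, and these groups did not overlap. In root 2 of the 3 genes were lower under low N with an unadjusted p below 0.05 (background 4.63% lower) and none was higher, and the lowest limma adjusted p was 0.339. In leaf 1 of the 3, Histone H1, was lower (background 4.72% lower), with a limma adjusted p of 0.325. The part of tissue age or cell division in the levels of RADIALIS and RADIALIS-like 6 was not tested.

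Several markers of both tissues also differed with N by unadjusted p, though none passed the adjusted test. The summed FPKM of the 6 leaf markers was 17391 to 21827 in low N leaf, against 14600.2 to 15620.3 in high N leaf. In leaf 3 of the 6 were higher under low N with an unadjusted p below 0.05 (background 6.48% higher, lowest limma adjusted p = 0.207). Their median log2(FPKM + 1) difference was 0.80, against 0.04 over all genes tested. PSAL and PSAG differed by only 0.05 and 0.06. The part of the leaf markers in the leaf differences of RADIALIS and RADIALIS-like 6 was not tested. In root all 5 root markers were higher under low N with an unadjusted p below 0.05 (background 6.52% higher, lowest limma adjusted p = 0.197). Their median log2(FPKM + 1) difference was 1.45, against 0.05 over all genes tested. NRT2.1 (Spo09968), a high-affinity nitrate transporter, had 208, 272 and 167 FPKM in low N root, against 1.28, 0.198 and 101 FPKM in high N root. High N root replicate 3 thus stood apart from the other high N root plants in NRT2.1. It also held the highest high N root value of RADIALIS, 6.02 FPKM, although the counting intervals of RADIALIS overlapped among the high N root libraries. Without that library the root difference of RADIALIS was 1.29, with a limma adjusted p of 0.397. In leaf PER27 had 36.6, 86.9 and 33.0 FPKM under low N, against 3.47, 2.51 and 24.8 FPKM under high N. Its highest low N and highest high N leaf libraries, replicates 2 and 3, were those of RADIALIS-like 6. The other 4 root markers did not pass 0.0507 FPKM in leaf.

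**Figure D4:**
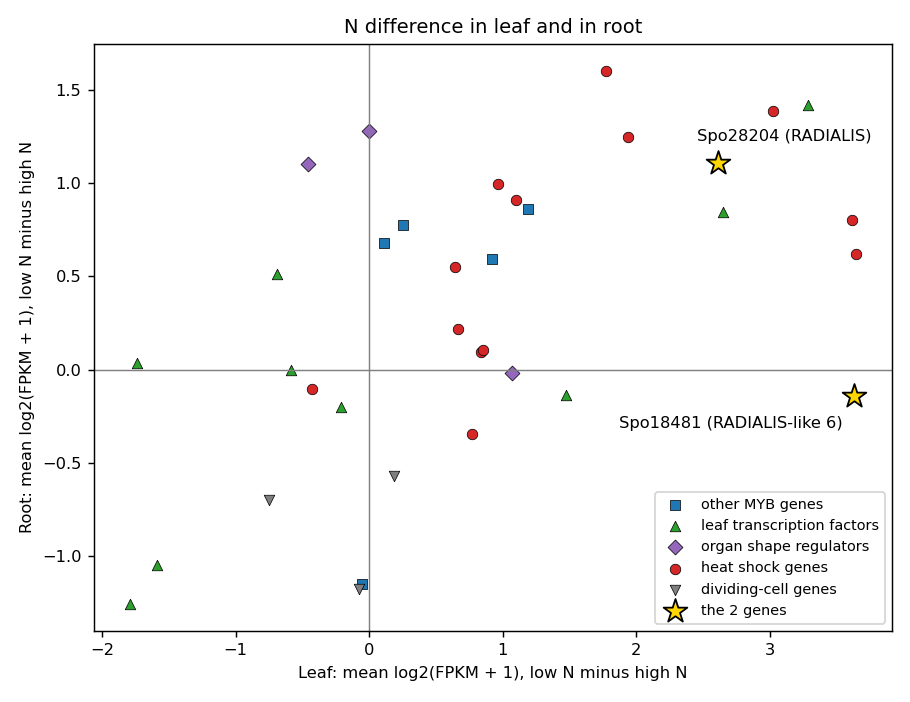
Difference in mean log2(FPKM + 1), low N minus high N, in leaf (horizontal) and in root (vertical), with 1 point per gene for RADIALIS, RADIALIS-like 6 (stars) and the genes of 5 lists. RADIALIS lies at 2.62 in leaf and 1.11 in root, RADIALIS-like 6 at 3.63 in leaf and -0.14 in root. The leaf values of the 2 genes, and values of the lists, come from libraries on which the study chose them.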

How the data were processed

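RNA of leaf and root was sequenced as 150 bp paired-end reads. According to the study's methods, the authors used TopHat (v2.0.12) with a Bowtie index (v2.2.3) for alignment to SpinachBase's genome, took fragments per gene from HTSeq (v0.6.1), and deposited FPKM, fragments scaled by gene length and library total. The submitters' processing notes instead name fastp, HISAT2 2.1.0, featureCounts and a count-based test, and which of these made the table could not be settled. Strand use in counting is not given in the sources used here. The table held 0 other per-sample columns.

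Low values are whole multiples of 1 fragment, so lengths and fragments were worked back for 23015 genes (tolerance 1e-06 fragments). A further 2480 were 0 in every library. Depth was 15627994 to 18608172 fragments per library.

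Low N and high N were compared within root by limma 3.58.1 in R 4.3.3 (eBayes with variance trend) on log2(FPKM + 1), over genes with a mean of at least 1 FPKM in the 6 root libraries, with Benjamini-Hochberg adjustment over all of them. RADIALIS-like 6, under that filter in root, was given a two-sided exact permutation test in SciPy 1.17.1 (Python 3.11.15). The same limma fit was run within leaf, over genes with a mean of at least 1 FPKM in the 6 leaf libraries, and its p-values are given for list genes only. The leaf and tissue differences of the 2 genes carry no test. The procedures were tested on simulated data.

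Named genes are the 2 genes, the genes of the lists, and for each of the 2 the 5 with the highest Pearson r over 12 and over 6 leaf libraries. The members, lists and tests were chosen with earlier results of these data known. Gene names are the study's. With 0 identifiers matched in the reference annotation, no position or sequence is given.

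As alternatives, each root library was left out in turn, the replicate number was fitted as a block, and the root comparison was refitted with array weights, by voom on fragments, without the variance trend, and with all 4 groups together. Other scalings (median-of-ratios, quantile), a pseudocount of 0.1, and either no filter or a mean of at least 5 FPKM were also tried.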

Additional observations from a re-analysis of the deposited data

How the results depend on the processing

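The root difference of RADIALIS kept its sign and stayed short of an adjusted p of 0.05 under all 16 alternatives. It ran from 0.73 to 1.75 with each of the 6 root libraries left out and from 1.06 to 1.57 over the 10 other settings, with limma adjusted p of 0.103 to 0.906. The difference could not move without the filter, with the 5 FPKM filter, without the variance trend, in the 4-group fit or with the block. Those settings change the p alone. The unadjusted limma p of RADIALIS in root was 0.0756 in the main comparison. It was 0.0470 with the replicate block, 0.0404 with all 4 groups in one fit, 0.00775 with array weights and 0.000353 without low N root replicate 1. Every other alternative gave an unadjusted limma p above 0.05, from 0.0785 without the variance trend to 0.232 without low N root replicate 3.

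Same-numbered low N and high N libraries did not all deviate together (correlations of -0.02 to 0.10 in root and -0.01 to 0.27 in leaf). In root 2 of the 3 low N and 2 of the 3 high N libraries correlated best with their own number. In leaf 1 of the 3 low N and 1 of the 3 high N libraries did. These values do not settle whether the numbers pair the plants, and the main comparison left them unpaired. With the replicate number as a block, RADIALIS in root had a difference of 1.11 (limma adjusted p = 0.444), and 1991 genes had an unadjusted p below 0.05, against 1993 without it. The block cannot move a difference of group means, with 1 library per number in each group. The leaf differences thus stayed at 2.62 and 3.63.

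The count of root genes with an unadjusted p below 0.05 was 4208 with array weights and 977 to 3110 with 1 library left out. It was lowest without high N root replicate 2 and highest without low N root replicate 1, and 1185 without high N root replicate 1. The number with an adjusted p below 0.05, 5 in the main comparison, was 95 with all 4 groups in one fit, 66 with array weights, 2 by voom, and 0 with the block or without a filter. With 1 library left out it was 18 without low N root replicate 1, 10 without high N root replicate 3 and 0 without any of the other 4.

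RADIALIS-like 6 in root ran from -0.56 to 0.15 with 1 library left out, with a sign that turned in 3 of the 6. With the pseudocount of 0.1 its leaf N difference was 5.87 and its leaf minus root difference under low N was 5.56, both larger by construction since its low values are near 0. Its N difference in leaf ran from 2.85 to 4.33 with 1 library left out, and that of RADIALIS from 2.31 to 2.93. Under high N the leaf minus root difference of RADIALIS was -0.015 with median-of-ratios scaling and 0.14 with quantile normalization, and that of RADIALIS-like 6 was 0.12 and 0.19 with these scalings, and -0.73 to 0.32 with 1 library left out. For RADIALIS-like 6 in root, the limma alternatives that keep the filter, the block among them, give no value, and without the filter limma gave -0.14 (adjusted p = 0.927).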
